A study of Mus musculus with 18 samples.

Results

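The developmental timing genes Lin28a, Lin28b, Trim71, Hmga2, Igf2bp2, Igf2bp3, Mycn, Prtg and Gdf11 were followed through mouse embryos without heads. They were taken by symbol from the deposited expression table and are 9 of its 55138 genes, and each was set beside the level of Hoxb13 in the same library. Each of 6 groups had 3 libraries. E9.5 embryos were homozygous Del(i9-13) or wild type. E10.5 embryos were homozygous Del(i9-13), homozygous Del(i9-13):Hoxb13hd, homozygous Hoxb13hd or wild type. Wild-type embryos were littermates of the mutants. Del(i9-13) is an allele of the HoxB cluster and was read from its name as a deletion between Hoxb9 and Hoxb13, while the labels leave the letters hd unexplained. The alleles are not described as restricted to a tissue, and replicates are not stated to be single embryos or pools, so p-values reflect the spread of these libraries, which may be partly technical. Poly(A) RNA was selected at E9.5, whereas ribosomal RNA was depleted at E10.5, each with a stranded kit, so stage and library type cannot be told apart.

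LIN28A and LIN28B are RNA-binding proteins of early embryos that block the maturation of let-7 microRNAs. Mature let-7 binds the 3′ untranslated regions of growth-promoting messages, and the Lin28 messages are among them, so that the proteins and the microRNA repress each other. The pathway was found in the nematode Caenorhabditis elegans as a clock of larval cell fates. In mouse embryos, raised Lin28 activity lengthens the tail, and Gdf11, a secreted ligand of the TGF-beta family, is needed for the switch from trunk to tail formation. Hoxb13 lies at the 5′ end of the HoxB cluster, and its loss lengthens the mouse tail. The title of the series sets insulation of Hoxb13 against the timing that determines tail length.

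The let-7 family is shown first because its seed, bases 2 to 8 of the mature RNA, links most of the genes. In the RefSeq annotation of GRCm38.p6, all 11 entries for let-7 genes and Mir98 carried the same seed, in 9 different mature sequences. Capitals mark the seed in 3 of them, given 5′ to 3′.
mmu-let-7a-5p: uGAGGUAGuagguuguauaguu
mmu-let-7e-5p: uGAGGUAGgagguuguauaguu
mmu-miR-98-5p: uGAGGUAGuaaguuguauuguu

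The sequence that pairs with this seed, CTACCTC, was searched on the sense strand of the longest protein-coding transcript's 3′ untranslated region of each gene in GENCODE M21 (GRCm38). It occurred in 7 of the 9 genes, at 18 places, against 8.85% of 20981 genes with such a region. The 9 genes were chosen around the Lin28 pathway, so this share describes the choice and is not a test. Only CTACCTC was searched, so other forms of a let-7 site are not counted. Hmga2, Lin28b and Trim71 each held 4 matches, Lin28a and Prtg 2 each, Igf2bp2 and Igf2bp3 1 each, and Mycn and Gdf11 0. To set this against regions of like length, among the 2835 genes whose region is 75% to 125% as long as that of Hmga2, 16.0% held at least 1 match and 0.141% at least 4. The corresponding shares were 23.7% and 0.239% for Lin28b, and 28.3% and 0.484% for Trim71. As many matches as in the other 4 genes were more common among genes of like length, at 1.98% for Lin28a, 4.98% for Prtg, 11.3% for Igf2bp2 and 12.7% for Igf2bp3. The first match of each of the 7 genes is given 5′ to 3′ with its GRCm38 position, the match in capitals, to show the shared letters and the differing flanks. In all 7 of these the letter after the match is an a, whereas the later matches of Hmga2, Lin28b and Prtg have t or c there.
Lin28a site 1, chr4:134005189-134005210, minus strand: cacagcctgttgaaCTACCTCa
Lin28b site 1, chr10:45381022-45381043, minus strand: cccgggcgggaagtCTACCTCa
Trim71 site 1, chr9:114512472-114512493, minus strand: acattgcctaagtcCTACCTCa
Hmga2 site 1, chr10:120364224-120364245, minus strand: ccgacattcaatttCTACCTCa
Igf2bp2 site 1, chr16:22059473-22059494, minus strand: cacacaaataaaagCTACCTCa
Igf2bp3 site 1, chr6:49086787-49086808, minus strand: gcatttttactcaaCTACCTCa
Prtg site 1, chr9:72912559-72912580, plus strand: cctctgctgaatagCTACCTCa
A match is a description of letters and not a measured binding site, and small RNAs were not measured here. The promoters of the 9 genes, 250 bases before to 50 bases after the start in RefSeq (GRCm38.p6), held 0 matches on either strand to CAATAAA or TCGTAAA, the letters searched for HOX13 proteins, which occurred in 4.60% and 0.597% of 32851 promoters.

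All 9 genes were well expressed, and all passed the filter on low counts in every comparison. Per length, in FPKM (length- and depth-scaled fragments, by the authors), Hmga2 was the most abundant at both stages, with a median of 174 FPKM over the 6 E9.5 libraries and 82.1 FPKM over the 12 E10.5 libraries. Lin28a was next at E9.5, at 105 FPKM, and Gdf11 and Trim71 were the lowest, at 12.2 and 13.8 FPKM. At E10.5 the median was 38.1 FPKM for Lin28a and 26.0 FPKM for Lin28b, while Prtg had 15.1 FPKM and Gdf11 12.5 FPKM. All levels below are CPM (counts per TMM-scaled library total), and are used to compare libraries for 1 gene, not genes with each other. Log2 fold changes, their standard error (SE) and adjusted p come from edgeR's quasi-likelihood test with Benjamini-Hochberg adjustment over all genes, and a gene is called at an adjusted p of 0.05.

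Hoxb13 separated the deletion libraries from the others. It had 39.1, 44.2 and 46.0 CPM in the 3 E9.5 Del(i9-13) libraries, against 0.117, 0.0347 and 0.137 CPM in E9.5 wild type. At E10.5 it had 10.8, 5.74 and 11.9 CPM in Del(i9-13), 11.1, 11.8 and 9.68 CPM in Del(i9-13):Hoxb13hd, 0, 0.0462 and 0.103 CPM in Hoxb13hd and 1.12, 0.125 and 0.0419 CPM in wild type. Every deletion library was above every library without the deletion at its stage. The low values rest on 0, 1 and 2 counts in Hoxb13hd and 25, 3 and 1 counts in E10.5 wild type, so that wild type replicate 1 stood above the other low libraries. Totals were 29.8 to 35.9 M counts per E9.5 library and 19.3 to 25.7 M per E10.5 library. The head markers Otx2 and Six3 were at or near 0 throughout, whereas Lhx2 and Emx2, which are also used outside the brain, were present.

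**Figure D1:**
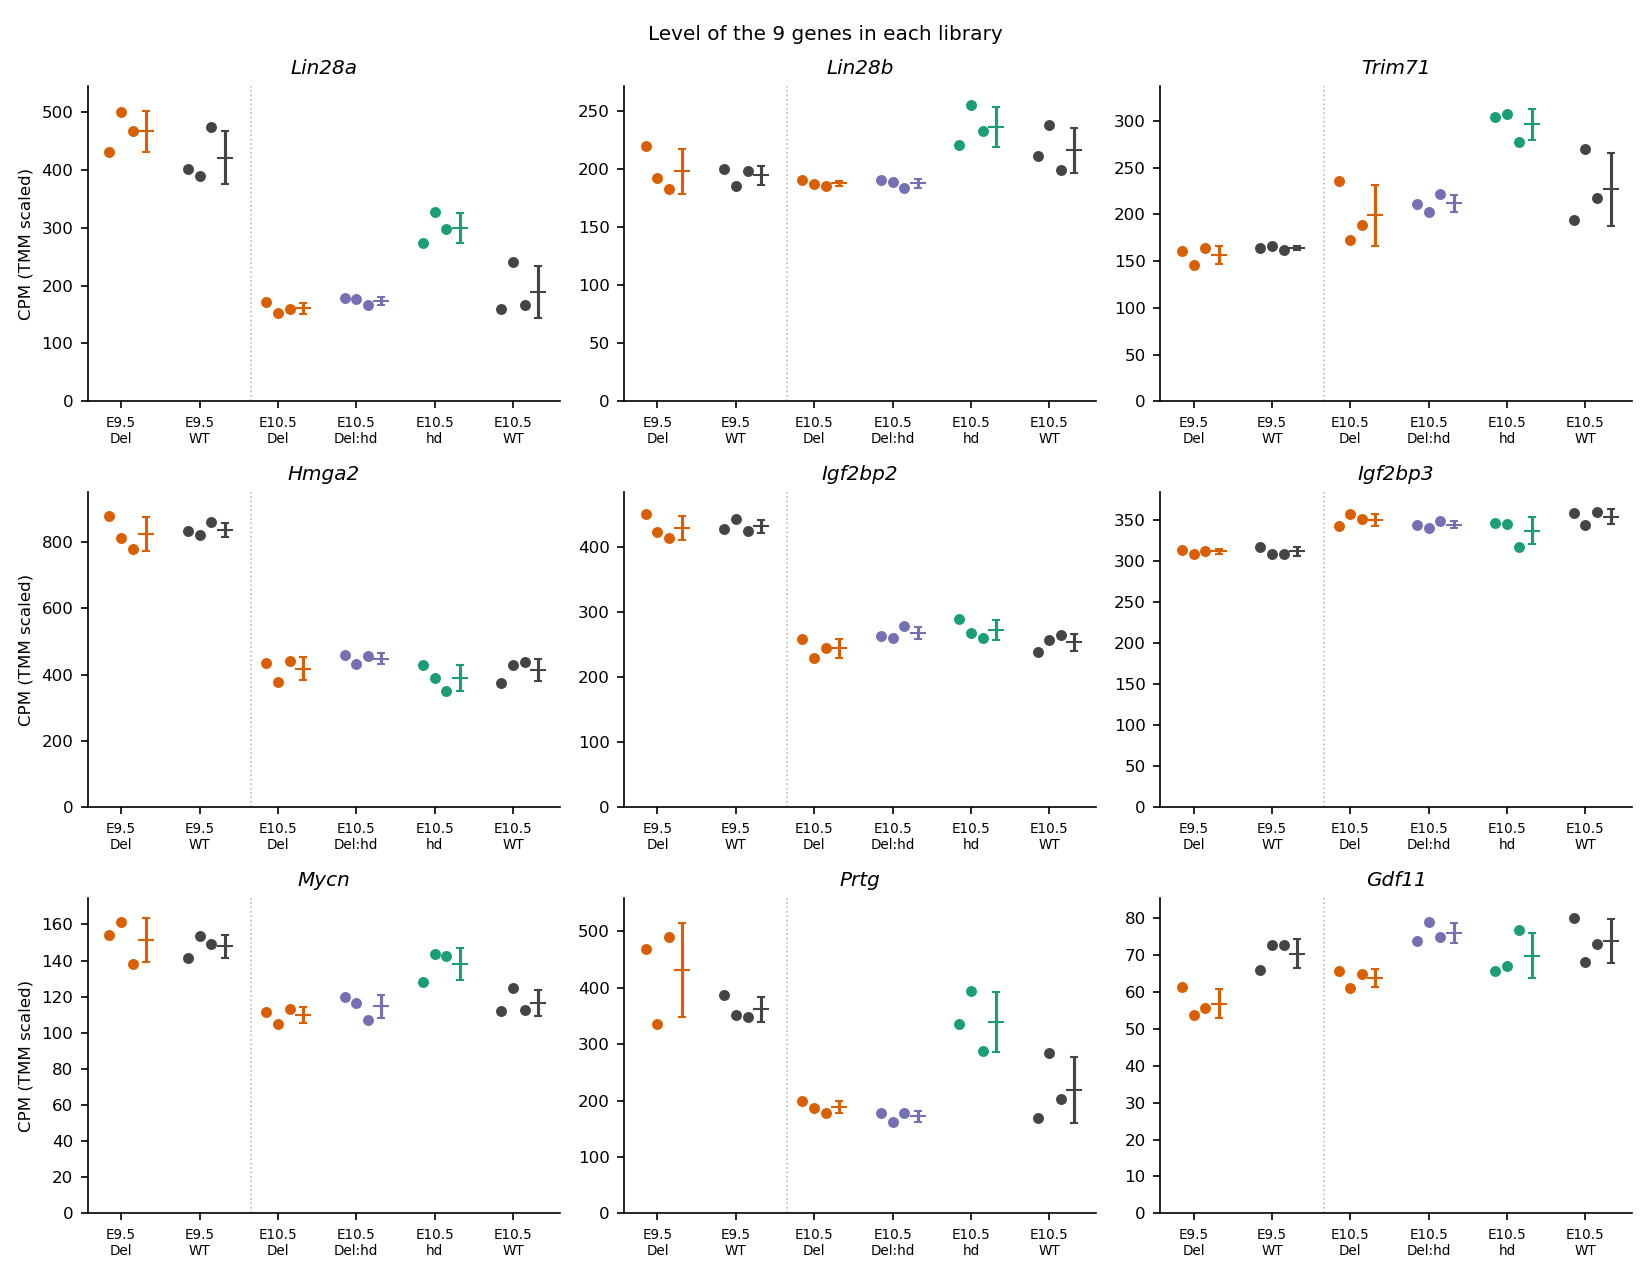
Level of each of the 9 genes in CPM (vertical axis, from 0) in each library (points, replicates 1 to 3 from left to right), with mean ± SD of 3 beside them (Del, Del(i9-13); Del:hd, Del(i9-13):Hoxb13hd; hd, Hoxb13hd; WT, wild type). The dotted line divides the poly(A)-enriched E9.5 from the ribo-depleted E10.5 libraries; Lin28a, Trim71, Mycn and Prtg are highest at E10.5 in Hoxb13hd.

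Across the E10.5 groups, Lin28a, Trim71, Mycn and Prtg were highest in every Hoxb13hd library, which the other 5 genes were not. In Hoxb13hd against wild type, 1 gene, Lin28a, was called higher and 0 lower, where 1.42% and 1.59% of all 17202 genes tested were called higher and lower. Lin28a, Trim71, Mycn and Prtg, 4 of the 9, had groups that did not overlap, as did 25.5% of all genes. Against Hoxb13hd, in Del(i9-13):Hoxb13hd, Lin28a and Prtg, 2 of the 9, were called lower and 0 higher, against 0.285% and 0.674% of all genes. There 6 of the 9 did not overlap, against 22.7% of all genes, with a median log2 fold change of -0.27 for the 9 and -0.01 for all genes. Both comparisons use the same 3 Hoxb13hd libraries, so they are not independent.

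Against wild type, edgeR called 0 of the 9 in Del(i9-13) at E10.5 (background 0.488%) and 0 in Del(i9-13):Hoxb13hd (background 0.401%), and DESeq2 and limma also called 0 in each. At an unadjusted p under 0.05 there were 2 of the 9 in Del(i9-13), namely Lin28b and Gdf11, both without overlap as in 13.2% of all genes, and 1 in Del(i9-13):Hoxb13hd, Lin28b. Of all genes, 9.13% and 12.5% had such a p in these comparisons. When the 6 deletion libraries were set against the 6 without the deletion, averaging over hd, Lin28a, Lin28b and Prtg, 3 of the 9, were called lower and 0 higher (background 0.221% and 0.279%). Only Lin28b, 1 of the 9, had no overlap between the 6 and 6 libraries, against 0.634% of all genes. For Del(i9-13):Hoxb13hd against Del(i9-13), edgeR, DESeq2 and limma called 0 of the 9 (background 0.907%), and 1, Gdf11, had an unadjusted p under 0.05, as did 16.1% of all genes; 3 of the 9 did not overlap, against 20.2% of all genes. These E10.5 comparisons share libraries, and their values are set side by side below for each gene.

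**Figure D2:**
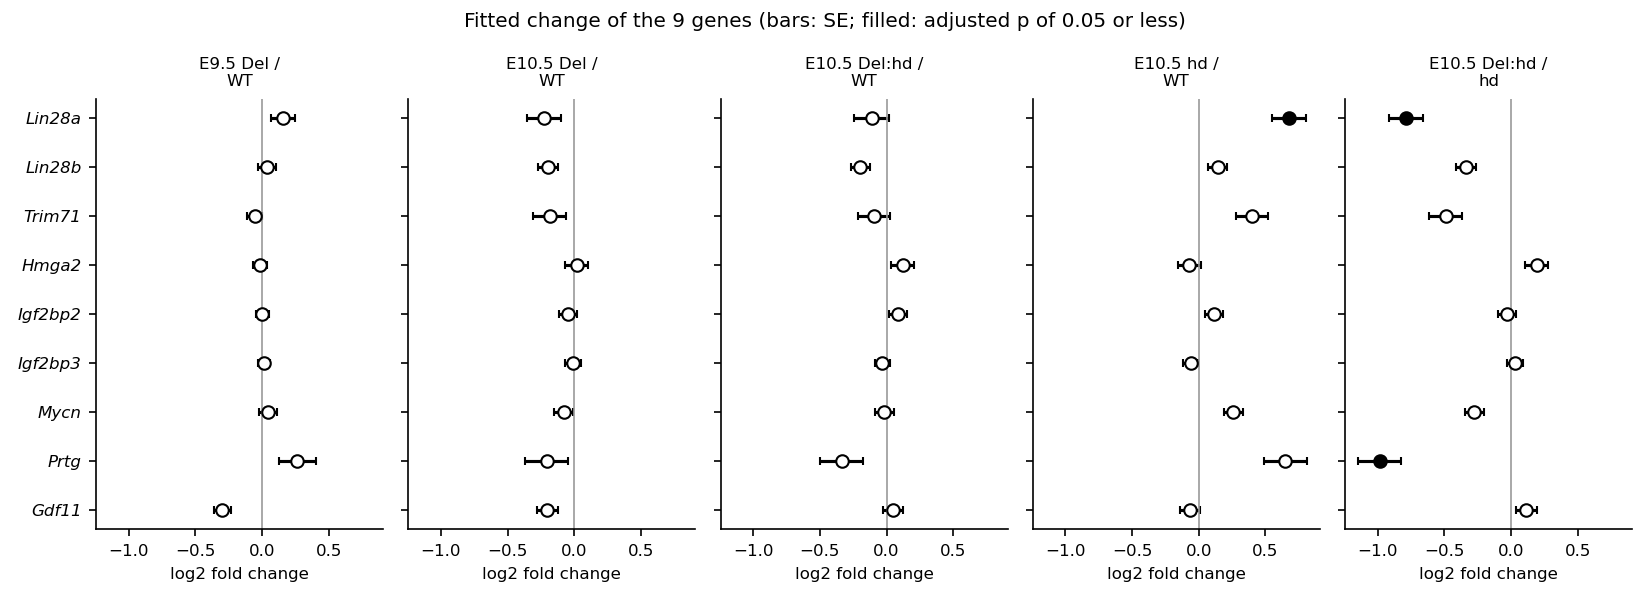
Fitted log2 fold change (horizontal axis) of each of the 9 genes in 5 comparisons, the group named first over the one named second (Del, Del(i9-13); hd, Hoxb13hd; WT, wild type); bars are SE, filled points have an adjusted p of 0.05 or less. Lin28a is filled in Hoxb13hd against wild type, and Lin28a and Prtg in Del(i9-13):Hoxb13hd against Hoxb13hd.

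Lin28a (ENSMUSG00000050966, chr4:134003329-134018841, mm10) encodes the Lin28 protein that acts mainly in the cytoplasm. At E10.5 it had 171, 152 and 159.5 CPM in Del(i9-13), 179, 177 and 166 CPM in Del(i9-13):Hoxb13hd, 274, 327 and 298 CPM in Hoxb13hd and 159.6, 241 and 167 CPM in wild type. All 3 Hoxb13hd libraries were above the other 9. Wild type replicates 1 and 3 lay among the deletion libraries, and replicate 2 lay between them and Hoxb13hd. The level in Hoxb13hd was 1.60 times that in wild type (log2 0.68, SE 0.13, adjusted p = 0.0198, edgeR, n = 3 each), and it was not called when these 2 groups were fitted alone (adjusted p = 0.0758, edgeR) or by limma without a filter (0.0924). Its level in Del(i9-13):Hoxb13hd was 0.579 times that in Hoxb13hd (log2 -0.79, SE 0.13, adjusted p = 0.0171, edgeR). Over the 6 deletion libraries Lin28a was 0.704 times the level in the 6 without it (log2 -0.51, SE 0.09, adjusted p = 0.0357, edgeR), a call not made by limma on FPKM (adjusted p = 0.0759). In Del(i9-13) against wild type the log2 fold change was -0.23 (SE 0.13, adjusted p = 0.652). For Del(i9-13):Hoxb13hd against wild type it was -0.11 (SE 0.13, adjusted p = 0.766). The summed level of tail bud markers was also highest in Hoxb13hd, as given below with its values, and their part in the Lin28a differences was not tested. In libraries from embryos without heads, which mix many cell types, more cells of a type and more RNA per cell cannot be told apart.

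The called size of the Lin28a difference varied less than its p. With each library left out in turn, the log2 fold change of Hoxb13hd against wild type ran from 0.58 to 0.90, and the adjusted p from 0.000346 to 0.0966 by edgeR, called in 2 of 6 such fits. It was called without wild type replicate 2 or Hoxb13hd replicate 1. It was not called without wild type replicate 1 (adjusted p = 0.092), wild type replicate 3 (0.0769), Hoxb13hd replicate 2 (0.0966) or Hoxb13hd replicate 3 (0.0691). Between Del(i9-13):Hoxb13hd and Hoxb13hd, Lin28a was called in 1 of 6 fits, the one without Hoxb13hd replicate 1, with log2 fold changes of -0.84 to -0.71 and adjusted p up to 0.0799. In the 6-against-6 comparison it was called in 5 of 12 fits, with adjusted p up to 0.109. It was not called there without Del(i9-13) replicate 2 or 3, without any 1 of the Del(i9-13):Hoxb13hd replicates, or Hoxb13hd replicate 2 or 3.

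Lin28b (ENSMUSG00000063804, chr10:45376619-45470201), the paralog that can also act in the nucleus, was the steadiest of the genes in the deletion libraries. It had 190.3, 187 and 186 CPM in Del(i9-13) and 190.5, 189 and 183 CPM in Del(i9-13):Hoxb13hd, against 221, 255 and 233 CPM in Hoxb13hd and 211, 238 and 199 CPM in wild type at E10.5. All 6 deletion libraries were below all 6 libraries without the deletion. Averaged over hd, the deletion group was 0.831 times the other (log2 -0.27, SE 0.05, adjusted p = 0.049, edgeR, n = 6 each), and was not called by limma on FPKM (adjusted p = 0.0889) or with Xist as a covariate (0.0757). This call was kept in 3 of 12 fits that left out 1 library, those without wild type replicate 3, Del(i9-13) replicate 1 or Hoxb13hd replicate 1. Its adjusted p reached 0.134 without Del(i9-13) replicate 3, and the log2 fold change stayed between -0.29 and -0.22. Lin28b in Del(i9-13):Hoxb13hd against Hoxb13hd had a log2 fold change of -0.34 (SE 0.07, adjusted p = 0.0533, edgeR). In Del(i9-13) and Del(i9-13):Hoxb13hd against wild type the values were -0.20 and -0.20 (adjusted p = 0.403 and 0.315, edgeR). In Hoxb13hd against wild type the groups overlapped, at a log2 fold change of 0.14 (adjusted p = 0.309, edgeR).

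Trim71 (ENSMUSG00000079259, chr9:114507132-114564369), the mouse counterpart of nematode lin-41, encodes a ubiquitin ligase that also binds messenger RNA. At E10.5 it had 236, 172 and 188 CPM in Del(i9-13), 211, 203 and 221 CPM in Del(i9-13):Hoxb13hd, 304, 308 and 277 CPM in Hoxb13hd and 194, 269.6 and 217 CPM in wild type. The 3 Hoxb13hd libraries were the highest of the 12, and wild type replicate 2 came next to them. Its log2 fold change was 0.40 in Hoxb13hd against wild type (SE 0.12, adjusted p = 0.0889, edgeR) and -0.49 in Del(i9-13):Hoxb13hd against Hoxb13hd (SE 0.12, adjusted p = 0.0707), so neither passed.

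Hmga2, Igf2bp2 and Igf2bp3, which hold let-7 seed matches as Lin28a and Trim71 do, showed no such separation of Hoxb13hd from wild type. Hmga2 (ENSMUSG00000056758, chr10:120361274-120476469), an architectural chromatin protein, had 434, 379 and 440.1 CPM in Del(i9-13), 459, 431 and 456 CPM in Del(i9-13):Hoxb13hd, 429.8, 390.5 and 352 CPM in Hoxb13hd and 376, 429 and 437 CPM in wild type at E10.5. Its mean was lowest in Hoxb13hd, and in Del(i9-13):Hoxb13hd against Hoxb13hd the groups did not overlap, at a log2 fold change of 0.19 (adjusted p = 0.301, edgeR). Igf2bp2 (ENSMUSG00000033581, chr16:22059008-22163299) and Igf2bp3 (ENSMUSG00000029814, chr6:49085222-49214957) encode proteins that bind Igf2 and other messages and affect their stability and translation. Igf2bp2 had 259, 229.6 and 245 CPM in Del(i9-13), 264, 261 and 279 CPM in Del(i9-13):Hoxb13hd, 289, 268 and 260.1 CPM in Hoxb13hd and 239, 257 and 266 CPM in wild type. Igf2bp3 was the flattest of the 9 genes, with group means from 336 CPM in Hoxb13hd to 353 CPM in wild type, a range of 5.15% of the lowest. Log2 fold changes of Igf2bp2 and Igf2bp3 in Hoxb13hd against wild type were 0.11 and -0.06 (adjusted p = 0.354 and 0.615, edgeR), which were not called.

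Mycn (ENSMUSG00000037169, chr12:12936092-12941914), a MYC family transcription factor of progenitor cells, followed Lin28a in order though over a narrower range. It had 111, 105 and 113 CPM in Del(i9-13), 120.0, 117 and 107 CPM in Del(i9-13):Hoxb13hd, 128, 143 and 143 CPM in Hoxb13hd and 112, 125 and 113 CPM in wild type. Every Hoxb13hd library exceeded every other E10.5 library. The log2 fold change was 0.26 in Hoxb13hd against wild type (SE 0.07, adjusted p = 0.0654, edgeR) and -0.27 in Del(i9-13):Hoxb13hd against Hoxb13hd (SE 0.07, adjusted p = 0.0772), neither of them called.

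Prtg (ENSMUSG00000036030, chr9:72806873-72917291) encodes protogenin, a transmembrane receptor of the immunoglobulin superfamily in the DCC group that is found in early neural and mesodermal progenitors. It had 199.7, 188 and 178 CPM in Del(i9-13), 178, 161 and 178 CPM in Del(i9-13):Hoxb13hd, 337, 395 and 287 CPM in Hoxb13hd and 169, 284 and 202 CPM in wild type at E10.5. The Hoxb13hd libraries were again the highest, but the lowest of them and wild type replicate 2 differed little. Prtg in Del(i9-13):Hoxb13hd was 0.506 times the level in Hoxb13hd (log2 -0.98, SE 0.16, adjusted p = 0.0197, edgeR). Over the 6 deletion libraries it was 0.662 times the level in the 6 others (log2 -0.60, SE 0.11, adjusted p = 0.049, edgeR), and the 2 sets overlapped in wild type replicate 1. In Hoxb13hd against wild type it had a log2 fold change of 0.65 (SE 0.16, adjusted p = 0.0536, edgeR), just outside the threshold. The call in Del(i9-13):Hoxb13hd against Hoxb13hd was kept in 2 of 6 fits that left out 1 library, those without Hoxb13hd replicate 1 or 3. It was lost without Hoxb13hd replicate 2 (adjusted p = 0.0847) and without Del(i9-13):Hoxb13hd replicate 1, 2 or 3 (adjusted p = 0.0735, 0.0935 and 0.0743), at log2 fold changes of -1.08 to -0.85 over the 6 fits. The 6-against-6 call was kept in 1 of 12 fits, the one without wild type replicate 1. It was lost with limma on FPKM (adjusted p = 0.0641) and with Xist as a covariate (0.052, edgeR).

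Wild type replicate 2 at E10.5 was the highest of its group in Lin28a, Lin28b, Trim71, Mycn and Prtg. It was also the one wild type library with high Xist, at 0.937, 591 and 0.461 CPM in wild type replicates 1, 2 and 3. In Hoxb13hd (687, 2.64 and 14.8 CPM) the library with high Xist had the least Lin28a. Because each of these groups had 1 library with high Xist, Xist cannot be told apart from other differences between libraries. With Xist as a covariate Lin28a was called in Hoxb13hd against wild type (log2 0.66, adjusted p = 0.0276, edgeR). Without wild type replicate 2, 4 of the 9 genes were called higher in Hoxb13hd than in wild type by edgeR, namely Lin28a (log2 0.90, adjusted p = 0.000346), Prtg (0.89, 0.0049), Trim71 (0.55, 0.0276) and Mycn (0.32, 0.0422). As that library was the highest of its group in these 4 genes, leaving it out raises the difference and narrows the wild type spread. These calls are therefore no independent support for a difference. In the same fit the log2 fold change in Del(i9-13) against wild type moved to -0.01 for Lin28a and to 0.03 for Prtg, so that the negative values of both with all libraries rest on that library. For Lin28b the value without it was -0.12. Over the 6-against-6 comparison without it, Lin28a was called (adjusted p = 0.0117), while Lin28b (0.104) and Prtg (0.0513) were not.

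An interaction term asked whether the deletion had the same effect on each gene with and without hd. edgeR called 0 of the 9 (background 0.523%), with 3 at an unadjusted p under 0.05, Lin28a, Prtg and Gdf11, against 11.7% of all genes. DESeq2 called 1, Prtg, and limma on FPKM called 0. The log2 interaction was -0.78 for Prtg (SE 0.23, adjusted p = 0.201), -0.56 for Lin28a (SE 0.18, adjusted p = 0.242) and 0.32 for Gdf11 (SE 0.11, adjusted p = 0.263), all by edgeR. Without wild type replicate 2, Lin28a (-0.77, adjusted p = 0.00832) and Prtg (-1.01, adjusted p = 0.0188) were called. As that library was the highest of its group in both genes, leaving it out makes the interaction more negative.

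Gdf11 (ENSMUSG00000025352, chr10:128882294-128891718) differed from the Lin28 genes in its order. At E9.5 it had 61.3, 53.7 and 55.5 CPM in Del(i9-13), against 65.8, 72.6 and 72.7 CPM in wild type, and the groups did not overlap, as in 18.6% of all genes. The log2 fold change was -0.30 (SE 0.07, unadjusted p = 0.00163, adjusted p = 0.148, edgeR), which did not pass. The 8 neuron markers summed to 91.5, 77.1 and 65.0 CPM in these Del(i9-13) libraries, against 129.6, 128 and 107 CPM in wild type, also without overlap. Other markers separated these groups as well: the tail bud sum was 242, 256 and 265 CPM in Del(i9-13), against 112, 210.0 and 209 CPM in wild type. The heart muscle sum was 45.8, 42.2 and 29.0 CPM in Del(i9-13), against 58.3, 48.6 and 99.7 CPM in wild type. Neural progenitor markers summed to 319, 273 and 259 CPM in Del(i9-13), against 347, 329.9 and 333 CPM in wild type, and posterior trunk markers to 176, 176 and 162 CPM in Del(i9-13), against 183, 219 and 205 CPM in wild type. Head and brain markers summed to 20.02, 16.16 and 12.89 CPM in Del(i9-13), against 25.19, 21.03 and 23.5 CPM in wild type. Of these sums without overlap, the tail bud sum alone was higher in Del(i9-13). The liver and visceral endoderm sum was 87.6, 226 and 826 CPM in Del(i9-13), against 19.4, 24.6 and 94.9 CPM in wild type. It was thus mostly higher in Del(i9-13) too, though the groups overlapped. The part of any of these markers in the Gdf11 difference was not tested. Xist, transcribed from the inactive X chromosome of females, had 1.29, 1.05 and 1.04 CPM in the Del(i9-13) libraries, against 1.31, 1529 and 1604 CPM in wild type, and the 2 wild type libraries with high Xist were the 2 highest in Gdf11. With Xist as a covariate the log2 fold change of Gdf11 was -0.19 (adjusted p = 0.721, edgeR). Wild type replicate 1 alone shared the low Xist of the Del(i9-13) libraries, so this fit can hardly tell Xist and genotype apart. At 65.8 CPM of Gdf11 that library was still above every Del(i9-13) library. At E10.5 Gdf11 had 65.7, 61.0 and 64.9 CPM in Del(i9-13), 73.8, 78.9 and 74.8 CPM in Del(i9-13):Hoxb13hd, 65.6, 67.0 and 76.8 CPM in Hoxb13hd and 80.0, 68.2 and 73.0 CPM in wild type. Del(i9-13) was below wild type and below Del(i9-13):Hoxb13hd with no overlap in either case, and touched the lowest Hoxb13hd library. Its log2 fold change against wild type was -0.20 (SE 0.08, adjusted p = 0.412, edgeR). The value in Del(i9-13):Hoxb13hd was 0.25 against Del(i9-13) (SE 0.08, adjusted p = 0.132) and 0.05 against wild type (SE 0.08, adjusted p = 0.838). None of these differences in Gdf11 was called by edgeR with the filter on low counts, while edgeR with no filter and DESeq2 called the one at E9.5 (adjusted p over its alternatives from 0.00134 to 0.721).

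At E9.5, where Hoxb13 in Del(i9-13) was highest, the Lin28 genes did not differ by a call. edgeR called 0 of the 9 genes in Del(i9-13) against wild type (background 0.362%), 1 at an unadjusted p under 0.05, Gdf11, against 11.7% of all genes; DESeq2 called 1 and limma 0. Lin28a had 431, 501 and 467 CPM in Del(i9-13), against 401, 389 and 474 CPM in wild type, at a log2 fold change of 0.16 (SE 0.09, adjusted p = 0.54, edgeR). Lin28b had 219.7, 192 and 183 CPM in Del(i9-13), against 200.1, 185 and 198 CPM in wild type. Prtg had 469, 336 and 489.7 CPM in Del(i9-13), against 387, 351 and 347 CPM in wild type, at a log2 fold change of 0.27 (adjusted p = 0.523), and Del(i9-13) replicate 2 was the lowest of all 6. Without that replicate the log2 fold change of Prtg was 0.42 (adjusted p = 0.0401, edgeR). For Hmga2, Igf2bp2, Igf2bp3, Mycn, Trim71 and Lin28b the fitted values lay between -0.05 and 0.04.

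The level of each gene was also read against Hoxb13 within the deletion libraries, where Hoxb13 ran from 5.74 to 11.9 CPM. Libraries with and without the deletion formed separate clusters, and no correlation over all of them is given. Del(i9-13) replicate 2 had the lowest Hoxb13 and the lowest Lin28a of the 6, at 152 CPM. Among the other 5 libraries, with 9.68 to 11.9 CPM of Hoxb13, Lin28a ran from 159.5 to 179 CPM. A slope on log2 Hoxb13 with the group as a term gave 0 of 9 calls by edgeR (background 0%, 434 of 16572 genes at an unadjusted p under 0.05, 0 of them among the 9) and 0 by DESeq2. The fitted slope was 0.12 log2 units per log2 unit of Hoxb13 for Lin28a (SE 0.11), 0.01 for Lin28b (SE 0.10) and 0.10 for Gdf11 (SE 0.10). Most of the spread in Hoxb13 comes from that 1 library. Among the 6 libraries with little or no Hoxb13, Lin28a ran from 159.6 CPM in wild type replicate 1, the one with 1.12 CPM of Hoxb13, to 327 CPM in Hoxb13hd replicate 2. Wild type replicate 3 had nearly as little Lin28a, 167 CPM, with 0.0419 CPM of Hoxb13, and Hoxb13hd replicate 1, with 0, had the least Lin28a of its group.

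**Figure D3:**
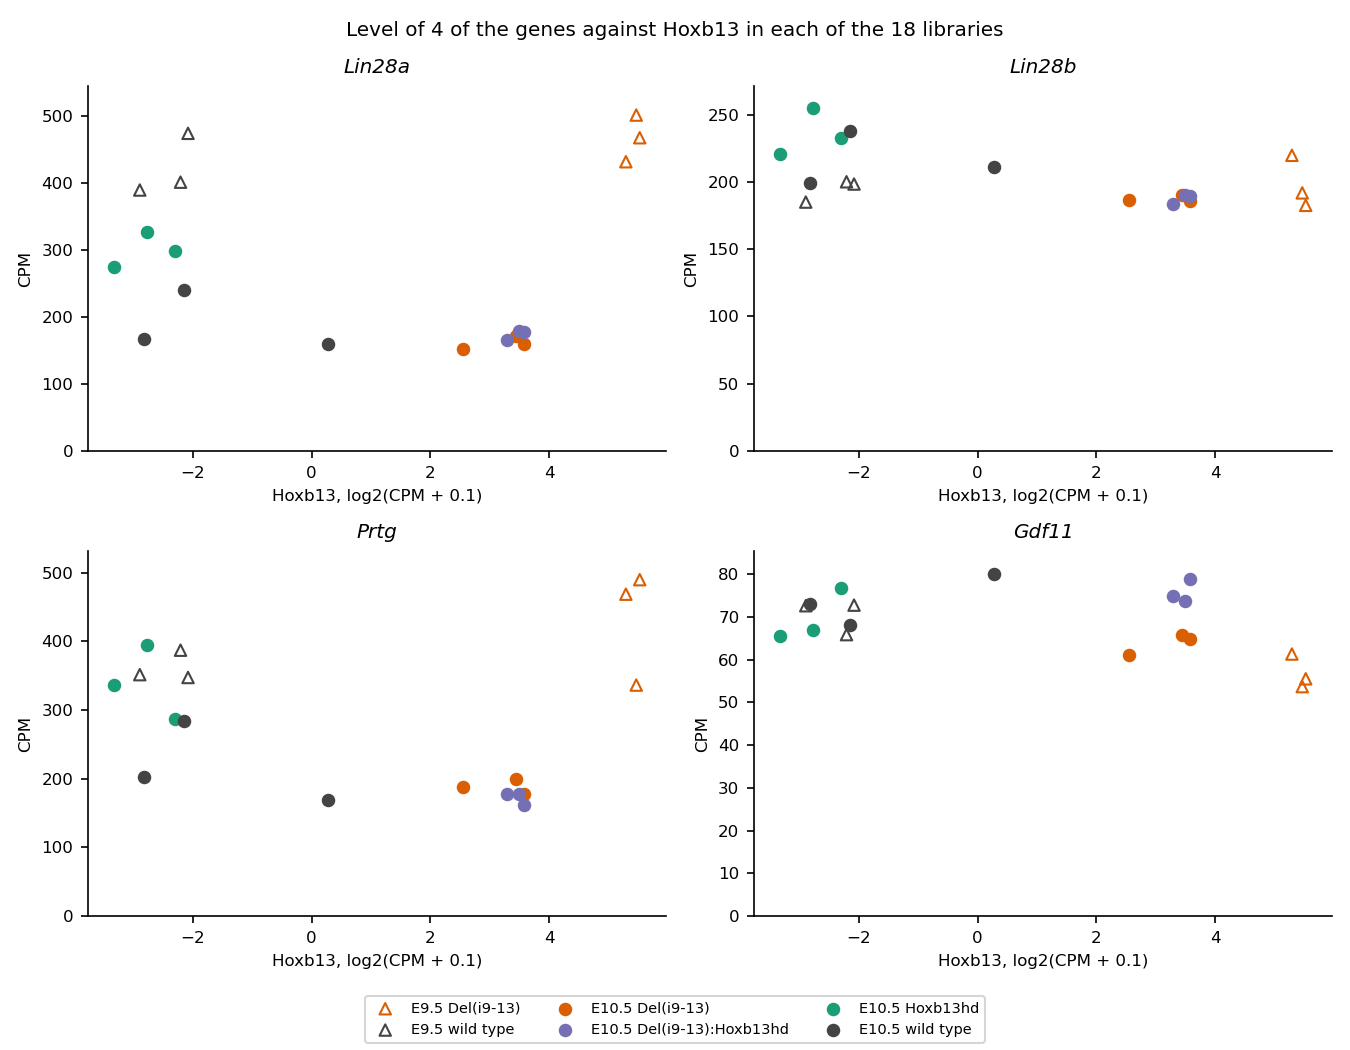
Level of Lin28a, Lin28b, Prtg and Gdf11 in CPM (vertical axes) against Hoxb13 as log2(CPM + 0.1) (horizontal axes) in each of the 18 libraries; open triangles are E9.5 and filled circles E10.5. At E10.5 the 6 deletion libraries on the right lie below the 6 others in Lin28b, whereas at E9.5 the deletion libraries overlap wild type in Lin28a, Lin28b and Prtg.

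Between the stages most of the 9 genes differed, as did 52.8% of all genes in wild type and 56% in Del(i9-13). In wild type at E10.5 against E9.5, 2 were called higher and 5 lower (background 27.8% and 25%). In Del(i9-13), 3 were called higher and 5 lower (background 31% and 25%). Shares of this size say little about the 9 genes as a set. Beside them, 11 of 13 tail bud markers were called lower and 7 of 8 neuron markers higher in wild type at E10.5, and their part in the result was not tested. In wild type Lin28a had 159.6, 241 and 167 CPM at E10.5, against 401, 389 and 474 CPM at E9.5, a log2 fold change of -1.13 (SE 0.14, adjusted p = 2.26e-05, edgeR), and in Del(i9-13) the value was -1.50 (SE 0.14, adjusted p = 2.12e-06). Hmga2 had 376, 429 and 437 CPM at E10.5 and 831, 819 and 859 CPM at E9.5 in wild type, with log2 fold changes of -0.99 in wild type and -0.94 in Del(i9-13). Igf2bp2 (-0.74 in wild type, -0.78 in Del(i9-13)), Prtg (-0.70 and -1.16) and Mycn (-0.32 and -0.43) were also called lower at E10.5 in both genotypes. Trim71 (0.49 and 0.38) and Igf2bp3 (0.21 and 0.21) were called higher at E10.5 in both. Lin28b, in contrast to its paralog, was called in neither (0.18, adjusted p = 0.0884 in wild type, and -0.04, adjusted p = 0.69 in Del(i9-13), edgeR). Gdf11 was called higher in Del(i9-13) (0.20, adjusted p = 0.0345) and not in wild type (0.09, adjusted p = 0.331).

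The difference between those stage effects was itself not called. For the interaction of stage and deletion, edgeR called 0 of the 9 (background 0.0453%), 0 at an unadjusted p under 0.05 (against 6.86% of all genes), and DESeq2 and limma also called 0. The interaction was -0.37 for Lin28a (SE 0.19, adjusted p = 0.793), -0.22 for Lin28b (SE 0.12, adjusted p = 0.794) and 0.11 for Gdf11 (SE 0.11, adjusted p = 0.926) by edgeR.

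Markers of other cells moved with the Hoxb13hd group. Of 13 tail bud and neuromesodermal progenitor markers, 5 were called higher in Hoxb13hd than in wild type (background 1.42%), Hes7 (log2 2.04), Cdx1 (1.16), Sp5 (1.07), Wnt3a (0.95) and Fgf8 (0.79), and the median of the 13 was 1.16. Their summed level was 46.5, 36.8 and 44.3 CPM in Del(i9-13), 55.6, 59.4 and 48.4 CPM in Del(i9-13):Hoxb13hd, 85.0, 129.6 and 126 CPM in Hoxb13hd and 53.6, 69.2 and 24.5 CPM in wild type. Of 8 neuron markers, 2, Dcx (-1.43) and Elavl4 (-0.62), were called lower in Hoxb13hd (background 1.59%). All 8 had an unadjusted p under 0.05 there by edgeR, against 20.4% of all genes. Among them Neurog2 went the other way (0.42, adjusted p = 0.0842, edgeR). The summed level of the 8 was 304, 366 and 358 CPM in Del(i9-13), 366, 369 and 345 CPM in Del(i9-13):Hoxb13hd, 235, 152 and 239 CPM in Hoxb13hd and 378, 259 and 388 CPM in wild type. Wild type replicate 2, which was high in Lin28a and Prtg, had the highest tail bud sum and the lowest neuron sum of its group. For Del(i9-13):Hoxb13hd against Hoxb13hd, 0 of the 13 tail bud markers were called by edgeR (12 at an unadjusted p under 0.05, against 15.2% of all genes), with a median of -1.04. There 1 of the 8 neuron markers was called higher, Stmn2 (1.11), against 0.674% of all genes. Liver and visceral endoderm markers moved with Hoxb13hd too: 6 of them summed to 96.0, 19.5 and 75.2 CPM in Hoxb13hd, below all 9 other E10.5 libraries, the lowest of which was wild type replicate 3 at 162 CPM, though 0 were called against wild type by edgeR (1 at an unadjusted p under 0.05). When the deletion libraries were set against those without the deletion, 0 of the 13 tail bud and 0 of the 8 neuron markers were called by edgeR. At an unadjusted p under 0.05 there were 8 and 7 of them, against 13.6% of all genes. No tail bud or neuron marker was at 0 in all libraries of a group. The part of these cells in the differences of Lin28a, Lin28b, Prtg, Trim71 and Mycn was not tested.

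**Figure D4:**
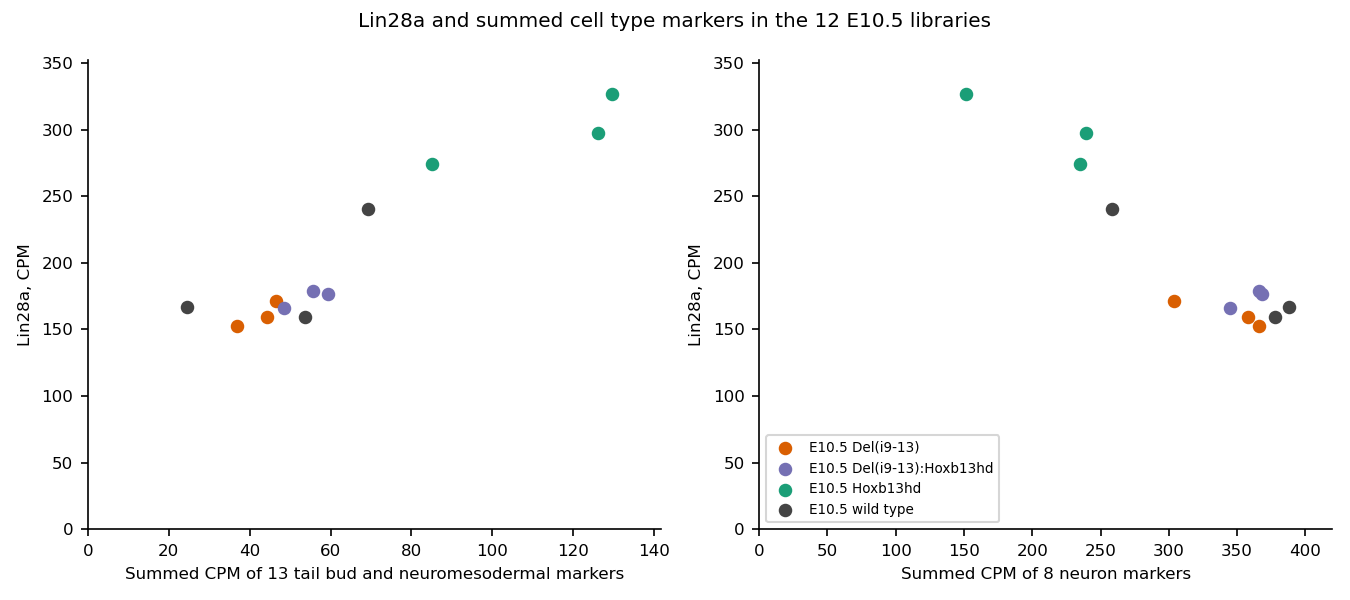
Level of Lin28a in CPM (vertical axes) in the 12 E10.5 libraries against the summed CPM of 13 tail bud and neuromesodermal markers (left) and of 8 neuron markers (right). The 3 Hoxb13hd libraries have the most Lin28a, the highest tail bud sums and the lowest neuron sums, and wild type replicate 2, at 241 CPM of Lin28a, is nearest to them.

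Over the 12 E10.5 libraries, the genes whose log2 CPM was most like that of Lin28a, among 12994, were Hes3 (Pearson r = 0.97), Mycn (0.96) and Wfikkn1 (0.95). These values describe libraries that share groups, depth and tissue composition, and no p is given. Prtg ranked 7 (0.94), Trim71 14 (0.93) and Lin28b 38 (0.89), whereas the r of Hmga2 was -0.37 and that of Gdf11 -0.06. Nearest to Lin28b were Snhg4 (0.97), Topbp1 (0.96) and Pctp (0.95). Nearest to Gdf11 were Mpo (0.88), Rprm (0.86) and Zic2 (0.85). Rprm had 8.04, 6.14 and 7.44 CPM in Del(i9-13), 13.0, 12.8 and 12.4 CPM in Del(i9-13):Hoxb13hd, 8.81, 6.61 and 9.73 CPM in Hoxb13hd and 10.9, 8.23 and 10.7 CPM in wild type.

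The rest of the pathway was read from lists of genes. Of 17 let-7 primary transcripts and hosts, Mir99ahg and Mir100hg alone passed the filter on low counts, and the other 15, short microRNA loci, had at most 0.419 CPM in any library and were not tested. Mir99ahg, a host of let-7c, had 19.2, 12.5 and 15.3 CPM in Del(i9-13), 11.6, 9.84 and 12.1 CPM in Del(i9-13):Hoxb13hd, 15.2, 10.4 and 13.8 CPM in Hoxb13hd and 13.8, 13.2 and 18.9 CPM in wild type at E10.5, and 1.26, 1.05 and 0.907 CPM in Del(i9-13) and 0.992, 0.868 and 0.956 CPM in wild type at E9.5. Both hosts were called higher at E10.5 than at E9.5 in both genotypes and in no comparison within a stage by edgeR (0 to 1 of the pair at an unadjusted p under 0.05, by comparison, against 9.13% to 20.4% of all genes). Of 12 genes that process let-7, such as Dicer1, the nuclease that cuts the hairpin, and Ago2, which carries the mature RNA, 0 were called within a stage by edgeR (1 to 2 at an unadjusted p under 0.05, by comparison, against 9.13% to 20.4% of all genes). In wild type at E10.5 against E9.5, 2 of them were called higher and 5 lower, the strongest by p being Tarbp2 (-0.69), Drosha (-0.80), Khsrp (-0.89) and Tut7 (0.32), where 27.8% of all genes were called higher and 25% lower.

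Among 20 other let-7 targets and Lin28-associated growth genes, Sall4 (0.62, adjusted p = 0.0196), Hmga1 (0.85, adjusted p = 0.0328) and Myc (0.57, adjusted p = 0.042) were called higher in Hoxb13hd than in wild type by edgeR, 3 of 20 against 1.42% of all genes, with a median of 0.11 for the list. Sall4, a zinc finger factor of early progenitors, had 107, 72.9 and 87.2 CPM in Del(i9-13), 107, 107 and 117 CPM in Del(i9-13):Hoxb13hd, 155, 158 and 146 CPM in Hoxb13hd and 89.4, 115 and 97.2 CPM in wild type. The 3 Hoxb13hd libraries were the highest of the 12. Nr6a1, a nuclear receptor that supports trunk elongation in the mouse, was called in 2 comparisons within a stage and in both between stages. It had 189, 183 and 194 CPM in E9.5 Del(i9-13), against 151, 138 and 149.8 CPM in E9.5 wild type (log2 0.38, adjusted p = 0.0272, edgeR), with no overlap. At E10.5 it had 55.0, 60.8 and 52.5 CPM in Del(i9-13), 50.0, 46.0 and 44.4 CPM in Del(i9-13):Hoxb13hd, 79.3, 98.6 and 77.4 CPM in Hoxb13hd and 45.8, 78.1 and 55.7 CPM in wild type, and was called lower in Del(i9-13):Hoxb13hd than in Hoxb13hd (log2 -0.87, adjusted p = 0.0339, edgeR). Wild type replicate 2 was again the highest of its group. Cdc25a, a phosphatase that drives the cell cycle, was called higher in Del(i9-13):Hoxb13hd than in Del(i9-13) (log2 0.39, adjusted p = 0.0241, edgeR). In wild type at E10.5 against E9.5, 1 of the 20 was called higher and 7 lower, led by p by Igf2 (-3.59), Tgfbr1 (0.69), Myc (-1.29) and Nr6a1 (-1.26), of which Tgfbr1 was the higher one, beside the same background.

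Of the 22 genes of the Gdf11 pathway, 21 were tested at E10.5, and in Hoxb13hd against wild type Wfikkn1 was called higher (0.82, adjusted p = 0.00929) and Mstn lower (-1.11, adjusted p = 0.0486) by edgeR (background 1.42% and 1.59%). Wfikkn1 encodes a secreted protein that binds GDF11 and myostatin, and Mstn encodes myostatin, the closest relative of GDF11. Wfikkn1 had 13.2, 15.5 and 13.6 CPM in Del(i9-13), 13.8 to 14.96 CPM in Del(i9-13):Hoxb13hd, 23.3, 28.0 and 23.8 CPM in Hoxb13hd and 12.1, 17.1 and 13.7 CPM in wild type, and was called lower in Del(i9-13):Hoxb13hd than in Hoxb13hd (-0.80, adjusted p = 0.0143, edgeR). The Hoxb13hd libraries were above all others in Wfikkn1. Mstn had 10.2, 14.1 and 12.6 CPM in Del(i9-13), 8.99, 7.81 and 8.40 CPM in Del(i9-13):Hoxb13hd, 6.29, 2.73 and 3.41 CPM in Hoxb13hd and 11.5, 6.81 and 8.80 CPM in wild type, with Hoxb13hd the lowest. The receptors Acvr2b, at 101, 86.6 and 97.7 CPM in Hoxb13hd and 73.5, 81.5 and 85.3 CPM in wild type, and Tgfbr1 were not called within a stage. In Del(i9-13) against wild type 0 of the pathway's genes were called higher and 0 lower by edgeR at E10.5 (1 at an unadjusted p under 0.05, against 9.13% of all genes).

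Of 12 genes of the MYC network, Myc and Mnt (0.61, adjusted p = 0.0405), which encodes a repressor that competes with MYC for MAX, were called higher in Hoxb13hd than in wild type (background 1.42%), and 0 in the other comparisons within a stage, by edgeR (0 to 5 at an unadjusted p under 0.05, by comparison, against 9.13% to 20.4% of all genes). Of the 4 relatives of Prtg, 0 were called within a stage by edgeR (0 to 2 at an unadjusted p under 0.05, by comparison, beside the same share of all genes). Igdcc3, the most abundant of them, had 247, 183 and 197 CPM in Del(i9-13), 246, 233 and 267 CPM in Del(i9-13):Hoxb13hd, 256, 202 and 228 CPM in Hoxb13hd and 173, 195 and 232 CPM in wild type. Its Hoxb13hd libraries overlapped wild type, unlike those of Prtg. Its Del(i9-13):Hoxb13hd libraries lay just above wild type, where those of Prtg overlapped. Between stages in wild type Igdcc3 was called lower at E10.5 (-1.39) and Dcc, a netrin receptor of growing axons, higher (1.88). In the same comparison 7 of the 22 Gdf11 pathway genes were called higher and 7 lower, first by p Tgfbr1, Acvr2a (0.68), Wfikkn1 (-1.07) and Nr6a1, and 4 of the 12 MYC network genes higher and 4 lower, first by p Mnt, Max (-0.73), Myc and Fbxw7 (0.52). With 27.8% of all genes called higher and 25% lower there, these shares are near the background.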

How the data were processed

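RNA of 18 libraries was measured by RNA sequencing. The authors deposited whole-number read counts per gene and FPKM per gene. Per the submitters' processing notes the tools were cutadapt 1.18, STAR 2.7.10a and Cufflinks 2.2.1, with mm10. How reads were counted, and with which strand setting, are details not given in the sources used here, which leaves overlapping and antisense genes uncertain. The tests on counts used edgeR 4.0.16 (R 4.3.3): filterByExpr (minimum count 10, total 15), TMM scaling, a robust quasi-likelihood fit and Benjamini-Hochberg adjustment over all genes at 0.05. E9.5 (6 libraries), E10.5 (12 libraries) and the wild type and Del(i9-13) libraries of both stages were fitted separately. The slope on Hoxb13 used the 6 E10.5 deletion libraries. Levels in CPM used TMM over all 18 libraries. The code was tested on simulated data. Within groups, chi-square over its degrees of freedom was 11.4 to 29.9, above sampling noise. It is a value per group and not per gene, so it does not show how far replicate spread limits any single gene.

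The 9 genes and the lists were chosen with earlier results of these data known. Named beside the 9 were the called genes of each list (up to 4 per comparison, smallest p first), otherwise the most abundant, and the 3 genes with the highest r to Lin28a, Lin28b and Gdf11. Some genes were named besides as examples after their values were seen: Otx2, Six3, Emx2, Acvr2b and Rprm for their levels. Alternatives were RLE scaling, no filter, 1 CPM in 3 libraries, DESeq2 1.42.0, limma 3.58.1 on log2(FPKM + 0.1) and log2(FPKM + 1), keeping 1 FPKM in 3 libraries, or on the first unfiltered, a fit of the groups compared, an Xist covariate, the replicate number as a block, and each library left out.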

Additional observations from a re-analysis of the deposited data

How the results depend on the processing

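Of 1800 values of the 9 genes under alternatives, 1679 kept their side of the threshold, 88 lost a call, 33 gained one, and 0 called values changed sign. The 1679 include uncalled values whose sign changed, as given above for Prtg. The number of the 9 called moved as follows, and the cause was not tested. In E9.5 Del(i9-13) against wild type, 0 became 1 with no filter and 1 with DESeq2, both Gdf11, and 0 to 1 with a library left out. In Hoxb13hd against wild type, 1 became 2 with the 1 CPM filter, 4 with DESeq2, 0 with limma without filter and 0 when the compared groups were fitted alone, and 0 to 4 with a library left out. In Del(i9-13):Hoxb13hd against Hoxb13hd, 2 became 5 with DESeq2, 0 with limma without filter and 4 with the compared groups alone, and 0 to 4 with a library left out. Over all deletion libraries, 3 became 5 with DESeq2 and 0 with each limma fit, and 0 to 3 with a library left out. The interaction of deletion and hd had 0, but 1 with DESeq2 and 0 to 2 with a library left out. For Del(i9-13) between stages 8 became 5 with no filter and 5 with limma without filter (6 with both filtered limma fits, with the compared groups alone and with Xist as a covariate, 7 with DESeq2 and RLE scaling, 6 to 8 with a library left out). For wild type between stages 7 became 6 with both filtered limma fits, 5 with limma without filter, 8 with the compared groups alone and 7 to 8 with a library left out. In the other comparisons it was 0 with each library left out. The fit of the compared groups alone is the fit as reported for E9.5, for all deletion libraries and for both interactions.

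Calls over all genes moved more: 58 (20 to 537) for E9.5 Del(i9-13) against wild type, 84 (40 to 285) for E10.5 Del(i9-13) against wild type, 69 (14 to 313) for E10.5 Del(i9-13):Hoxb13hd against wild type, 517 (51 to 1194) for E10.5 Hoxb13hd against wild type, 165 (36 to 644) for E10.5 Del(i9-13):Hoxb13hd against Hoxb13hd, 156 (58 to 1453) for E10.5 Del(i9-13):Hoxb13hd against Del(i9-13), 86 (21 to 382) for all E10.5 deletion libraries against the rest, 90 (40 to 287) for E10.5 interaction of deletion and hd, 9326 (7452 to 9735) for wild type E10.5 against E9.5, 9897 (7616 to 10374) for Del(i9-13) E10.5 against E9.5, 8 (1 to 69) for stage by deletion interaction, 0 (0 to 21) for E10.5 slope on Hoxb13 level.

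The replicate numbers did not pair the libraries: same-numbered libraries correlated at 0.00286 to 0.143 at E9.5 and -0.234 to 0.157 at E10.5. With the replicate block the number called was 1 in Hoxb13hd against wild type, 3 in Del(i9-13):Hoxb13hd against Hoxb13hd (Lin28b added) and 3 over all deletion libraries.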

Other observations

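The summed level of 6 heart muscle markers was 214, 268 and 378 CPM in E10.5 Del(i9-13), 153, 117 and 221 CPM in Del(i9-13):Hoxb13hd, 508, 72.9 and 64.9 CPM in Hoxb13hd and 195, 387 and 1509 CPM in wild type. That of 6 liver and visceral endoderm markers was 1230.4, 303 and 269.9 CPM in Del(i9-13), 257, 308 and 233 CPM in Del(i9-13):Hoxb13hd, 96.0, 19.5 and 75.2 CPM in Hoxb13hd and 457, 204 and 162 CPM in wild type. Heart muscle was highest in replicate 1 of Hoxb13hd and in replicate 3 of wild type. Of the 2 head and brain markers tested, Lhx2 was called higher over all E10.5 deletion libraries than in the rest (log2 0.50, adjusted p = 0.00869, edgeR), as were 0.279% of all genes. Lhx2, also a gene of the limb bud, had 26.1, 28.0 and 24.7 CPM in Del(i9-13) and 26.2, 27.4 and 27.5 CPM in Del(i9-13):Hoxb13hd, against 18.3, 17.5 and 20.9 CPM in Hoxb13hd and 19.4, 16.2 and 20.7 CPM in wild type, and every deletion library was above every other. Sox1, a neural progenitor factor, was called lower in the same comparison (log2 -0.64, adjusted p = 0.0357, edgeR). Hoxd9 was called higher in Hoxb13hd than in wild type (log2 0.59, adjusted p = 0.0118, edgeR), 1 of 6 posterior trunk genes, against 1.42% of all genes.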
